A study of Homo sapiens with 8 samples.

Results

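The carbonic anhydrases are zinc enzymes that turn carbon dioxide and water into bicarbonate and a proton, and back. The family was followed here in H460, an established line from a human lung cancer of the non-small-cell type, through every probe set of an Affymetrix array that the platform annotation assigns to CA2, CA5B, CA8, CA9, CA11, CA12, CA13 or CA14 alone. That rule found 17 of the 54613 probe sets, for 7 of the 8 named genes: 7 probe sets for CA12, 3 for CA8, 2 each for CA5B and CA13, and 1 each for CA2, CA11 and CA14. CA9 was not analysed here, because the annotation used here pairs it with 0 probe sets, and 1 further probe set shared by CA5B and the pseudogene CA5BP1 was left out.

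The arrays fall into 2 groups of 4. H460S arrays hold cells sensitive to TRAIL, a relative of tumour necrosis factor that triggers cell death through death receptors, and H460R arrays hold cells with acquired TRAIL resistance, after daily TRAIL over 6 months. All were grown in RPMI with serum, and the labels call the sensitive cells the control, although they give the same treatment text for all 8 samples, so whether the sensitive cells ever met TRAIL is not clear from them. The labels give no TRAIL dose, and do not say whether H460R is 1 clone or a pool or whether replicate arrays are separate cultures. Errors and p-values below thus cover the spread among arrays alone, and part or all of that may be technical. Resistance, long TRAIL exposure and time in culture cannot be told apart in this design.

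Cells make large amounts of acid, and carbonic anhydrases speed its removal and supply bicarbonate to enzymes that need it. CA2 and CA13 work in the cytosol, CA5A and CA5B in mitochondria, and CA4, CA9, CA12 and CA14 sit in the membrane with their catalytic part outside the cell. CA8, CA10 and CA11 are related proteins that have lost the catalytic activity. CA9 and CA12 are known as genes induced by low oxygen in tumours, CA9 as a direct target of hypoxia-inducible factors.

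The genes were chosen on measured values, with the contrast between resistant and sensitive cells in view, above all the higher level of CA2 beside lower levels of hypoxia genes. Their differences are therefore given as a description, with no test. Values are log2(signal + 1), a difference is resistant minus sensitive on that scale with its standard error from the limma fit (n = 4 per group), and levels carry the SD over 4 arrays. Adding 1 before the log shrinks changes at the lowest signals. Changes of dim genes also rest on weak signals, so their size is uncertain either way. A probe set is called dim below where its mean lay under 5.01, the level of the median probe set. Levels of different probe sets are not comparable with each other, so only differences between groups are set side by side.

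Promoter sequence of members that were lower in resistant cells is shown because hypoxia-inducible factors bind the cores ACGTG and GCGTG. The RefSeq promoter table (GRCh38.p14) matched 4 of the 8 genes, CA5B, CA9, CA12 and CA14. The 250 bases before the start of CA12, chr15:63381847-63382096 on the minus strand, and of CA5B, chrX:15738020-15738269 on the plus strand, are written 5′ to 3′ with each core, on either strand, in capitals.
CA12: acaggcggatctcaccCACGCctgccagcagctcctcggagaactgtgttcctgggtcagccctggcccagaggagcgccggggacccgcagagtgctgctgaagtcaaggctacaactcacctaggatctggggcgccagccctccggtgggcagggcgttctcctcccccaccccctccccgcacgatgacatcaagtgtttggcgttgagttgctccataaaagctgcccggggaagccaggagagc
CA5B: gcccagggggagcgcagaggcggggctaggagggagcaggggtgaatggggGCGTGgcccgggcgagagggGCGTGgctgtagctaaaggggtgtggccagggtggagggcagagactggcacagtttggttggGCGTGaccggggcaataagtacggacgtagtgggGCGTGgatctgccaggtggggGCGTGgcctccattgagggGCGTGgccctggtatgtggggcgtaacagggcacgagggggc
The CA12 window holds 1 GCGTG, on the reverse strand as CACGC, whose first letter lies 234 bases before the start, and 0 ACGTG. The CA5B window holds 6 GCGTG and 0 ACGTG, all on the forward strand. The CA9 window, not printed, holds 1 ACGTG, on the reverse strand as CACGT with its first letter 18 bases before the start, and 0 GCGTG. The CA14 window holds neither core. Over the first 250 bases of all 35116 promoters in the table, 18.5% hold ACGTG, 32.2% hold GCGTG and 43.2% hold either, on either strand, and some promoters hold both. Each core can overlap its own reverse complement, and the last letter of ACGTG can be the first of GCGTG. A match describes letters in the window and not a bound site.

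CA2, the fast cytosolic enzyme, was far higher in resistant cells. Its probe set 209301_at read 7.34, 7.36, 7.42 and 7.32 in the 4 sensitive arrays and 12.03, 12.09, 12.08 and 12.24 in the 4 resistant arrays, as signals 161.5, 163.1, 170.2 and 158.9 against 4193, 4346, 4323 and 4841. The groups lay far apart and each was tight, with SDs of 0.04 and 0.09. The difference was 4.75 ± 0.09, a 26.9-fold higher signal, the 25th highest of the 54613 differences. Leaving out each array in turn gave 4.70 to 4.77. CA2 has this 1 probe set, so no second one bears on it.

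CA13, the other cytosolic member, was slightly higher. Probe set 231270_at read 7.62, 7.77, 7.36 and 8.17 in sensitive and 8.13, 8.15, 8.11 and 8.68 in resistant arrays, a difference of 0.54 ± 0.21. These groups overlapped, since the highest sensitive array lay above the lowest 3 resistant arrays. Probe set 235899_at read 6.78, 6.37, 6.52 and 6.98 in sensitive and 7.19, 7.42, 7.33 and 7.25 in resistant arrays, a difference of 0.64 ± 0.15, with all resistant arrays above all sensitive ones. The difference of CA13 on either probe set was far smaller than that of CA2.

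**Figure D1:**
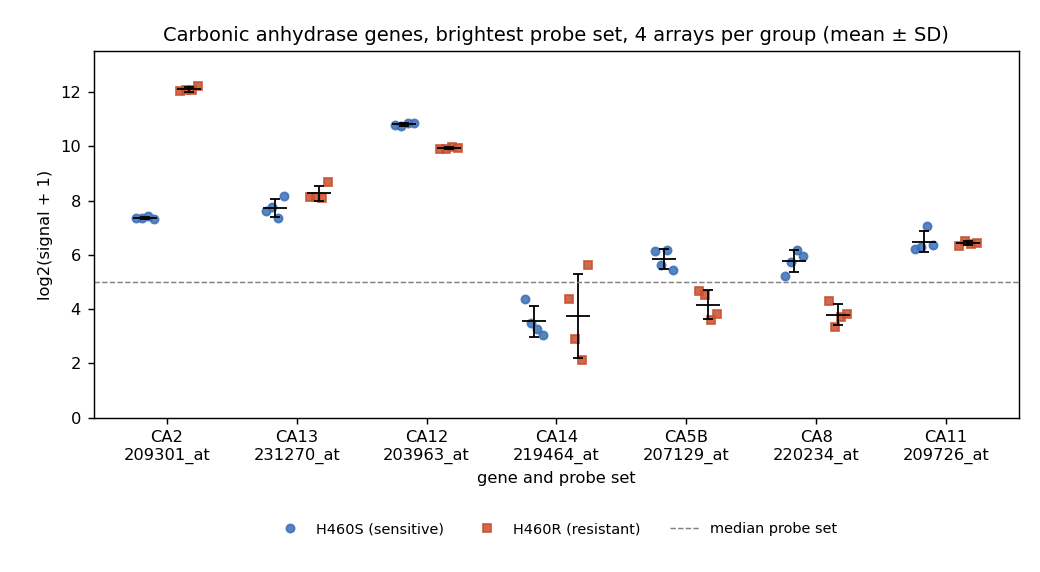
Level of each member's brightest probe set, as log2(signal + 1) on the vertical axis, for 7 genes on the horizontal axis; points are single arrays, 4 sensitive and 4 resistant, bars are mean ± SD, and the dashed line is the median probe set at 5.01. CA2 stands apart between the groups, at 7.36 against 12.11, CA12, CA5B and CA8 are lower in resistant arrays without overlap, and CA13, CA14 and CA11 overlap.

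CA12, a membrane enzyme of tumour cells whose catalytic part faces outward, was lower in resistant cells, by close to 2-fold. Its brightest probe set, 203963_at, read 10.77, 10.76, 10.85 and 10.88 in sensitive and 9.91, 9.89, 9.98 and 9.96 in resistant arrays, a difference of -0.88 ± 0.08. The groups did not overlap and the spread within each was 0.06 (SD) or less. The 5 bright CA12 probe sets gave differences of -1.02 to -0.85, a 1.81-fold to 2.03-fold lower signal, with standard errors of 0.08 to 0.12. On all 5 the sensitive arrays lay above the resistant ones. Leaving out each array in turn gave -1.05 to -0.83 over these 5. The remaining 2, near or below the median probe set, had negative differences with overlapping groups: 204509_at with -0.68 ± 0.25, from 5.34 ± 0.38 to 4.67 ± 0.36, and 241230_at with -0.40 ± 0.70, from 3.72 ± 1.10 to 3.32 ± 1.09. The 7 probe sets share a target gene and are not independent replicates.

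**Figure D2:**
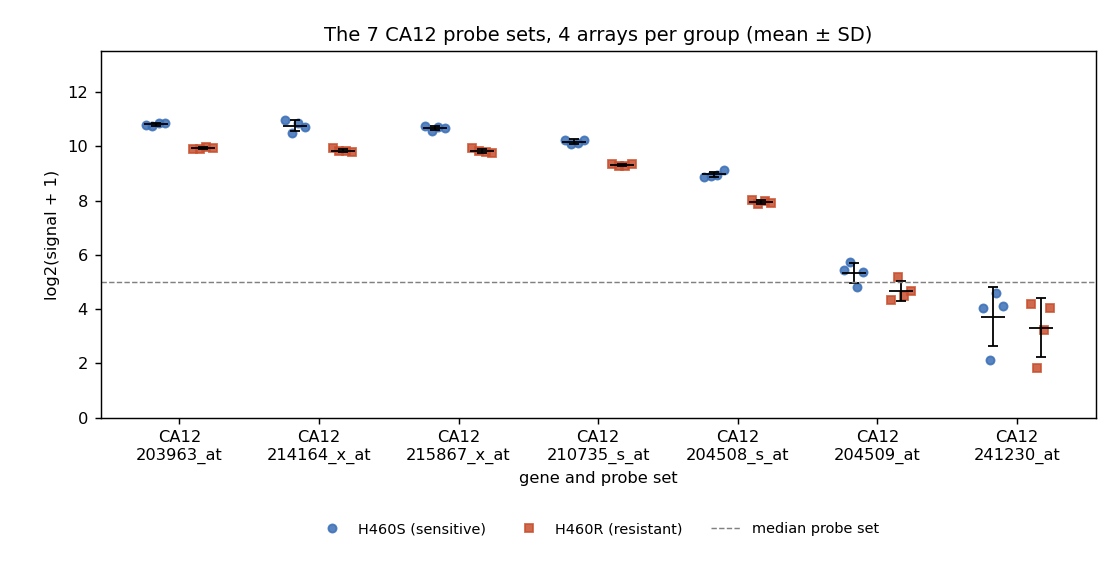
Level of the 7 CA12 probe sets, as log2(signal + 1), by probe set on the horizontal axis; points are single arrays of the sensitive and resistant group, bars are mean ± SD and the dashed line is the median probe set. In the 5 bright probe sets resistant arrays lie 0.85 to 1.02 below sensitive ones without overlap, and in the 2 weak ones the groups overlap.

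CA14, the other membrane member measured, was dim in both groups. It read 4.38, 3.48, 3.27 and 3.05 in sensitive and 4.37, 2.91, 2.12 and 5.61 in resistant arrays, a difference of 0.21 ± 0.75. The resistant arrays spread wider (SD 1.55) than the sensitive ones (SD 0.58) and enclosed them, so no difference could be seen at this signal.

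CA5B, which supplies bicarbonate inside mitochondria, was lower on 1 of its 2 probe sets. On 207129_at it read 6.13, 5.63, 6.17 and 5.45 in sensitive and 4.68, 4.53, 3.60 and 3.83 in resistant arrays, a difference of -1.68 ± 0.30 without overlap. The resistant mean, 4.16, was dim, so the size rests on weak signals; with a pseudocount of 16 it was -1.13. On 214082_at, dim in both groups, the difference was -0.53 ± 0.49 and the groups overlapped. The neighbouring pseudogene CA5BP1, a near copy of CA5B, had 2 probe sets of its own, with differences of -0.19 ± 0.18 and 0.04 ± 0.10 and overlapping groups. How far the CA5B probe sets also bind CA5BP1 transcripts was not tested.

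CA8, a related protein without catalytic activity that binds the inositol trisphosphate receptor ITPR1, was lower in resistant cells on its brightest probe set. On 220234_at it read 5.21, 5.73, 6.17 and 5.96 in sensitive and 4.32, 3.34, 3.72 and 3.83 in resistant arrays. All sensitive arrays lay above all resistant ones, and the difference was -1.97 ± 0.27. The resistant level was dim, and with a pseudocount of 16 the difference was -1.26. Probe set 238537_at, dim in both groups, gave -1.65 ± 0.42 without overlap, or -0.35 with a pseudocount of 16, and 1555445_at -0.03 ± 0.69 with overlap. ITPR1 itself lay at 8.68 ± 0.16 in sensitive and 8.70 ± 0.10 in resistant cells, a change of 0.02 ± 0.10 that did not pass (limma adjusted p = 0.907).

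CA11, another related protein without catalytic activity, showed no difference beyond its spread. It read 6.21, 6.30, 7.06 and 6.35 in sensitive and 6.34, 6.50, 6.40 and 6.45 in resistant arrays. Apart from sensitive array 3 every array lay within 6.21 to 6.50, and the difference was -0.05 ± 0.19. Leaving out each array in turn gave -0.14 to 0.14.

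Counted over the members, 10 of 17 probe sets had an adjusted p below 0.05 in the fit over all probe sets (limma, Benjamini-Hochberg), 2 higher and 8 lower in resistant cells, against 19.5% of all 54613 probe sets, 9.13% higher and 10.4% lower. The groups did not overlap on these same 10 probe sets, against 26.4% of all. The rule used this contrast, so nothing is read from these counts. Of the 8 lower, 5 belong to CA12. The nearest outside the threshold, though not close to it, were CA12 204509_at (-0.68 ± 0.25) and CA13 231270_at (0.54 ± 0.21). The nearest inside it were CA8 238537_at and CA13 235899_at. The count was 8 to 10 when leaving out each array. CA8 238537_at lost its place without sensitive array 1, 2 or 3 or any 1 of the 4 resistant arrays, and CA13 235899_at without sensitive array 2 or 3 or resistant array 2 or 3. CA8 238537_at also lost it with a pseudocount of 16, and both lost it with the array number as a block.

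The 7 other genes of the family, CA1, CA3, CA4, CA5A, CA6, CA7 and CA10, were dim in both groups on all of their 11 probe sets, with group means from 0.93 to 4.94. Their differences ran from -0.79 (CA7, a cytosolic form) to 1.09 (CA10, a related protein), the groups overlapped on each, and 0 of 11 had an adjusted p below 0.05 in the limma fit (1 of 11, a CA10 probe set, at an unadjusted p below 0.05). At such signals a 2-fold difference could not be seen reliably, so these 7 genes cannot be called equal between groups.

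**Figure D3:**
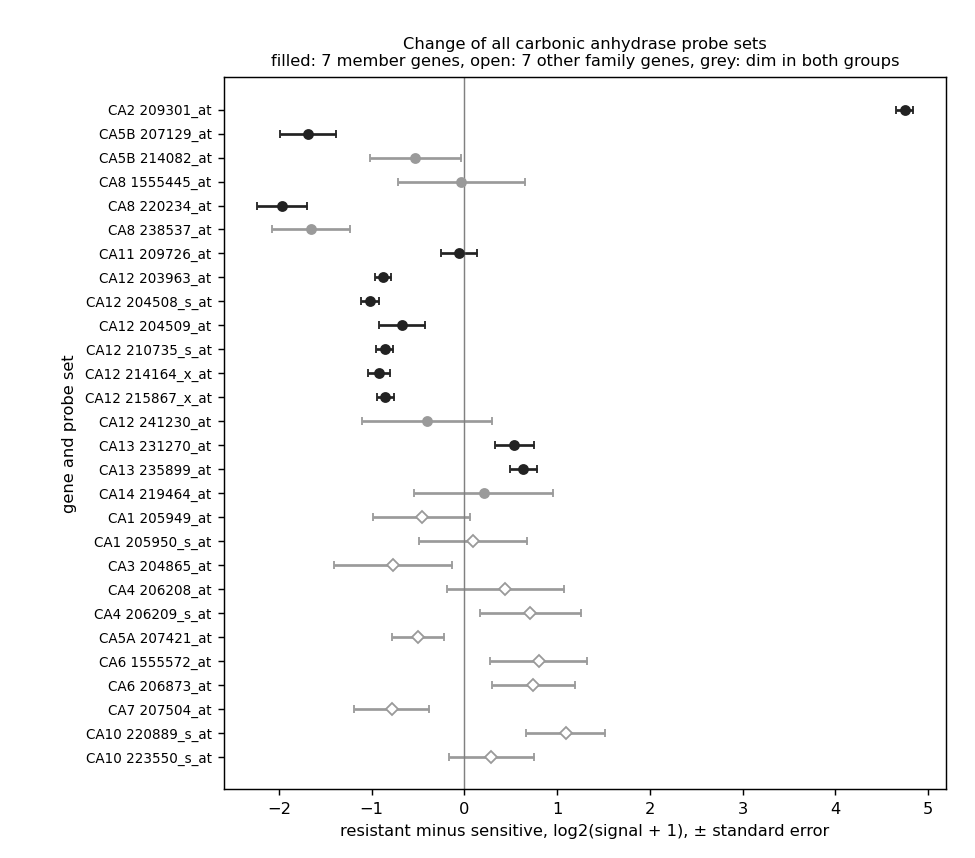
Difference between resistant and sensitive arrays (log2(signal + 1), horizontal axis) with its standard error for all 28 carbonic anhydrase probe sets on the vertical axis; filled circles are the 7 member genes, open diamonds the 7 other genes, grey those dim in both groups. CA2 lies alone at 4.75, the CA12 probe sets lie between -1.02 and -0.40, and all 11 probe sets of the other genes are grey.

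CA2 and CA12 thus differed in opposite directions, on the contrast that chose them. The difference of CA2 exceeded that of CA12 by 5.63 ± 0.10 on the brightest probe sets. This gap was 5.59 to 5.65 when leaving out each array in turn. All 3 probe sets of the cytosolic members had positive and all 7 of CA12 negative differences, some of them with overlapping groups. Probe sets of 1 gene are not replicates, and the signs do not extend to cytosolic and membrane forms as classes. Among forms dim in both groups, with overlapping groups, the membrane form CA14 differed by 0.21. Of the cytosolic forms, CA7 differed by -0.79, CA3 by -0.77 and CA1 by -0.46 and 0.09. Against the changes of all probe sets, whose median was -0.04, CA2 lay in the upper tail and CA12 on the shoulder of the negative side, its brightest probe set having the 5506th lowest difference.

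**Figure D4:**
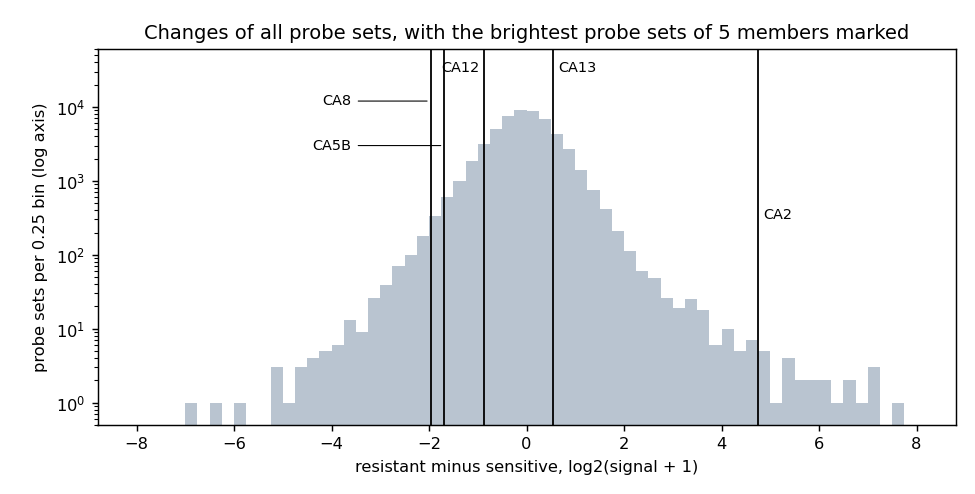
Number of probe sets (vertical log axis) by resistant minus sensitive difference in log2(signal + 1), in bins of 0.25, for all 54613 probe sets; vertical lines mark the brightest probe sets of 5 members. CA2 at 4.75 lies far out in the upper tail, and CA8 at -1.97, CA5B at -1.68 and CA12 at -0.88 lie on the lower side.

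Hypoxia genes, part of the reason for choosing this family, were lower too, on 1 probe set a gene. Of 28 listed targets, 25 were lower, 1 was higher and 2 did not pass, against 15.6% of all 19775 genes lower and 14.7% higher; this contrast chose the genes and nothing is read from the count. The median difference of the 28 was -1.23, beside -0.03 over all genes. ANKRD37 differed by -3.30 ± 0.08, the lipoprotein lipase inhibitor gene ANGPTL4 by -2.32 ± 0.13 and the enolase gene ENO2 by -2.22 ± 0.07. PFKFB4, a regulator of glycolysis, differed by -2.06 ± 0.15, PDK1, a pyruvate dehydrogenase kinase, by -2.06 ± 0.17, and the vasodilator peptide gene ADM by -2.02 ± 0.07. These 6 are the lowest of the list. The difference of CA12, -0.88, lay within the range of the 25 lower targets, between VEGFA (-0.83) and P4HA2 (-0.98). The 1 that was higher was PFKFB3, by 0.36 ± 0.08, and ALDOA (-0.43 ± 0.14) and LDHA (-0.40 ± 0.15) did not pass; these 3 are named after their values were seen.

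Of 10 measured genes of the hypoxia sensor itself, 1 was higher and 2 were lower, and 3 were dim in both groups. Of all genes 14.7% were higher and 15.6% lower, so nothing is read from this count. The oxygen-sensing hydroxylase genes EGLN3 and EGLN1, which are induced by the factors they restrain, differed by -1.41 ± 0.09 and -0.68 ± 0.07. EPAS1, which encodes HIF-2 alpha, read 11.29, 11.13, 11.10 and 11.16 in sensitive and 11.83, 11.81, 11.70 and 11.77 in resistant arrays, higher by 0.61 ± 0.07; with the mean of its probe sets the difference was 0.65 and was not called. HIF1A, which encodes HIF-1 alpha, differed by 0.21 ± 0.07 and did not pass, but passed in 5 of 16 alternative analyses, among them quantile normalization (0.25). HIF proteins are controlled mainly by their breakdown, which transcript levels do not show.

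The genes whose profile over the 8 arrays was most like that of CA2 were NTS, the precursor of neurotensin, the Wnt antagonist gene DKK1, and ANXA10, an annexin. Likeness was the root mean square difference between profiles, each centred on its own mean, over 11640 genes at or above the level of the median probe set; it was 0.07, 0.08 and 0.21. Like CA2 they were higher in resistant cells, by 4.79 ± 0.06, 4.63 ± 0.08 and 4.74 ± 0.17. The 3 closest to CA12 were the sheddase gene ADAM17, VEGFA, a vascular growth factor gene and hypoxia target, and DEFB1, a beta-defensin, at 0.03, 0.04 and 0.05. They were lower in resistant cells, by 0.83 to 0.91. The measure rests mostly on the single step between groups, and so finds genes that differ by the same amount.

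The step of CA2 was not shared by the genes beside it. In the order of the RefSeq table (GRCh38.p14), the 3 measured genes on one side were CA3, CA1 and CA13, and those on the other REXO1L1P, PSKH2 and ATP6V0D2. On the gene level these 6 changed by -0.77 to 0.54, and 0 of 6 passed (limma adjusted p from 0.0951 to 0.931; 1 of 6, CA13, had an unadjusted p below 0.05). CA1, CA3, REXO1L1P and PSKH2 were dim in both groups. Beside CA12, 3 of 6 neighbours fell: RAB8B, a small GTPase of membrane traffic, by 0.69 ± 0.12 (limma adjusted p = 0.00368), APH1B, a gamma-secretase subunit, by 0.75 ± 0.13 (adjusted p = 0.00361) and USP3, a deubiquitinase, by 0.35 ± 0.07 (adjusted p = 0.00812). On all 3 the sensitive arrays lay above the resistant ones, as for 17.4% of all genes, and 15.6% of all genes fell. For RPS27L, which did not pass, the resistant arrays lay above, so 4 of 6 had groups that did not overlap, against 33.9% of all genes in either direction. RPS27L, USP3-AS1 and FBXL22 changed by 0.18, -0.22 and -0.40 and did not pass.

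Genes that work with carbonic anhydrases in acid and bicarbonate handling were tested, on lists also drawn up with earlier results of these data known. Of 86 genes on 6 lists 74 were measured, and 13 rose and 11 fell in resistant cells. That is 32.4% called, near the 30.3% of all genes, and the median change of the 74 was -0.04. After median centring 14 rose and 7 fell, but the whole table moved too. Over all genes 3203 then rose and 2434 fell, against 2900 and 3086 without centring. The lactate transporters SLC16A1 and SLC16A3, known partners in acid export, were not analysed here.

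The vacuolar proton pump drives protons into vesicles and lysosomes. Of its 21 measured subunit genes, 9 rose, 2 fell and 10 did not pass, where 14.7% of all genes rose and 15.6% fell, and the median change was 0.28. With the array number as a replicate block 6 rose and 1 fell. ATP6V0E1 read 11.22, 11.18, 11.04 and 11.42 in sensitive and 12.15, 12.14, 12.12 and 12.17 in resistant arrays, a rise of 0.93 ± 0.09 (limma adjusted p = 0.000326). ATP6V0A2 rose by 0.76 ± 0.08, ATP6V1D by 0.62 ± 0.09, ATP6V0D1 by 0.55 ± 0.08 and ATP6V0C, the gene of the proton-binding ring, by 0.53 ± 0.08 (adjusted p at most 0.00256). The largest fall was that of ATP6V1G2, a brain form, by 1.10 ± 0.16 to a dim level of 4.01 (adjusted p = 0.00185). When leaving out each array 7 to 9 rose and 1 or 2 fell. Averaging its probe sets took ATP6V0A2 to 0.58, which did not pass (limma, adjusted p = 0.0853).

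Of 15 measured genes listed as bicarbonate transporters, 2 rose and 3 fell, near the 14.7% and 15.6% of all genes. The list holds genes of the SLC4 and SLC26 families and CFTR, and transport of bicarbonate by each was not tested. In both groups 7 of the 15 were dim. SLC4A2, an anion exchanger that swaps chloride for bicarbonate, lay at 9.21 ± 0.15 in sensitive and 9.62 ± 0.03 in resistant arrays, which did not overlap, a rise of 0.41 ± 0.09 (limma adjusted p = 0.0118). SLC26A4 rose by 1.37 ± 0.32 (adjusted p = 0.0157), from one dim level to another, and did not pass with an intensity trend and robust prior (adjusted p = 0.0561). SLC4A11 fell by 0.76 ± 0.13 (adjusted p = 0.00375). SLC26A6 fell by 0.49 ± 0.13 (adjusted p = 0.0277). SLC26A9 fell by 0.75 ± 0.23 to a dim level of 4.80, with overlapping groups (adjusted p = 0.0436). Neither of these last 2 passed without sensitive array 1, 2 or 4 or resistant array 2 or 4. SLC26A6 also did not pass without resistant array 3, nor SLC26A9 without resistant array 1. Without single arrays the limma adjusted p of SLC26A6 and SLC26A9 reached 0.0674 and 0.104. With median centring it was 0.0644 and 0.0543, and with the replicate block 0.0618 and 0.151. SLC26A6 passed in 8 of 16 alternatives and SLC26A9 in 5.

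Among acid extruders, 1 of 10 rose and 1 fell, where 14.7% of all genes rose and 15.6% fell. SLC9A5, a sodium-proton exchanger, rose by 0.41 ± 0.11 (limma adjusted p = 0.0282), but its change was -0.66 on probe sets without a suffix for cross-hybridisation and -0.18 with the mean of its probe sets, neither of which passed (adjusted p = 0.470 and 0.838). HVCN1, a voltage-gated proton channel, fell by 1.46 ± 0.43 to a dim level of 3.83, and its groups overlapped (limma adjusted p = 0.0382). SLC9A5 did not pass without sensitive array 3 or 4 or resistant array 1, 2 or 4, nor HVCN1 without sensitive array 1, 2 or 3 or resistant array 1, 2 or 4 (adjusted p up to 0.0748 and 0.0950). BSG, the chaperone of lactate transporters, changed by -0.08 ± 0.10 and did not pass. Of 6 acid sensors 1 rose, where 14.7% of all genes rose, 5 did not pass, and 4 were dim in both groups. The 1 was GPR65, a receptor for extracellular protons. It went from 8.09 ± 0.14 to 8.81 ± 0.09, a rise of 0.73 ± 0.10 (limma adjusted p = 0.00115).

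Of 9 enzymes that use bicarbonate, 3 fell and 0 rose, a share near the 30.3% of all genes called. With the mean of all probe sets 2 fell and 1 rose, and on probe sets without a suffix for cross-hybridisation 1 of 8 fell. PC, pyruvate carboxylase, which draws on the bicarbonate that mitochondrial carbonic anhydrases supply, read 7.88, 7.81, 7.72 and 7.71 in sensitive and 6.15, 6.55, 6.39 and 6.32 in resistant arrays. The groups lay well apart, and the fall was 1.43 ± 0.10 (limma adjusted p = 8.18e-05). PCCB and PCCA, the subunits of propionyl-CoA carboxylase, fell by 0.96 ± 0.08 (adjusted p = 0.000194) and 0.83 ± 0.15 (adjusted p = 0.00543). These 2 depended on the probe set: with the mean of all probe sets they changed by -0.24 (adjusted p = 0.274) and -0.28 (adjusted p = 0.653), and PCCB by 0.49 (adjusted p = 0.207) on probe sets without a suffix for cross-hybridisation. CPS1, carbamoyl phosphate synthetase, changed by 0.04 ± 0.09 and did not pass.

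**Figure D5:**
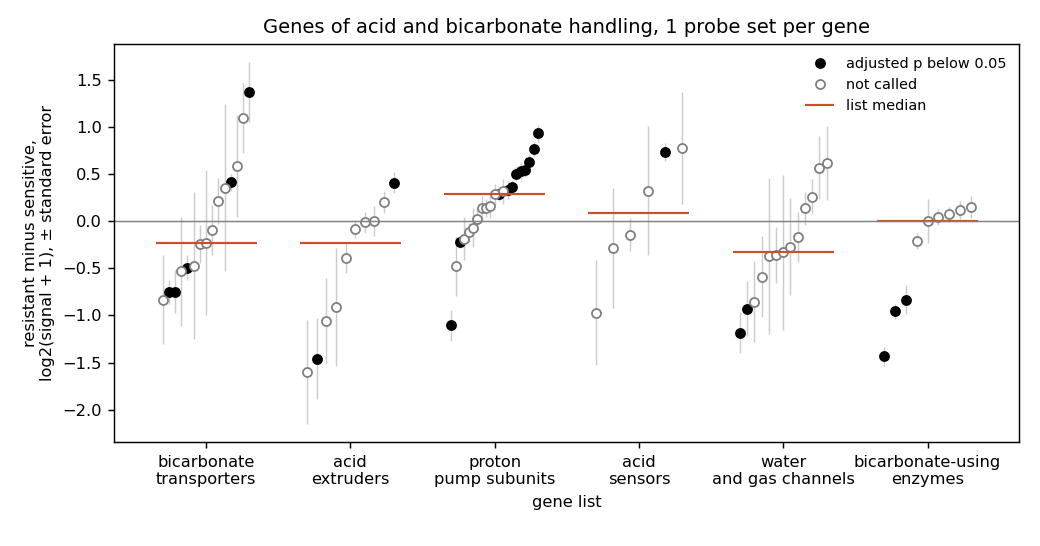
Resistant minus sensitive change in log2(signal + 1) with its standard error (vertical axis) for the 74 measured genes of 6 lists of acid and bicarbonate handling (horizontal axis); filled points have a limma adjusted p below 0.05 and red lines are list medians. Proton pump subunits have a median of 0.28 with 9 rises, and 3 bicarbonate-using enzymes lie between -1.43 and -0.83.

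The keratin genes KRT8, KRT18 and KRT19 were bright in both groups (11.28 to 13.18), while EPCAM and CDH1, also epithelial markers, were dim in both. Of the epithelial list 1 of 5 was lower (KRT19, by 1.24), where 15.6% of all genes were lower. The summed signal of this list was 16942 to 19731 in sensitive and 13312 to 16023 in resistant arrays. Markers of erythroid cells, which are rich in CA1 and CA2, had 3 of 5 genes measured, 0 called, and a summed signal of 54.7 to 99.3 in sensitive and 37.9 to 56.5 in resistant arrays, with ALAS2 and EPB42 dim. Leukocyte markers (3 of 5 measured, summed signal 105.2 to 133.5 and 114.03 to 135.4) and endothelial markers (3 of 3, 80.2 to 86.96 and 50.7 to 91.5) had 0 called; in these 3 lists 0 had an unadjusted p below 0.05 either. Of 6 fibroblast markers, 1 was dim in both groups and 2, LUM and PDGFRB, were lower, where 15.6% of all genes were lower. The summed signal of the 6 was 1299 to 1465 in sensitive and 1168 to 1293 in resistant arrays. The part of these differences in the values above was not tested. Array medians ran from 32.6 to 37.5 in signal. In bulk RNA of a culture, fewer cells expressing a gene and less RNA per cell cannot be told apart.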

How the data were processed

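RNA of H460 cells, 4 sensitive and 4 resistant samples, was extracted with Trizol, labelled with biotin and hybridised to 1 array each, per the labels' protocols. What was deposited is 1 intensity per probe set and array on a linear scale, for 54675 probe sets including 62 controls. RMA is named in the submitters' processing notes, but these signals do not have its form: each array's mean after trimming 2% at each end is 200. How the authors made them is therefore not settled, and arrays scaled to one mean cannot show a change in total RNA. Signals were turned to log2(signal + 1) and 54613 probe sets fitted with limma 3.58.1 in R 4.3.3 (lmFit, eBayes), with Benjamini-Hochberg adjustment over the whole table and calls at an adjusted p below 0.05. The fit was also run on simulated arrays drawn independently of each other, so that run does not cover dependence between the real arrays. Genes outside the family were represented by their brightest probe set, in a fit of 19775 genes. Names came from the platform annotation: 41091 probe sets had 1 symbol, 1801 had several and were not named, and 11721 were not in the annotation used here. Of the 41091, 41037 matched the RefSeq gene table of GRCh38.p14, used for names and gene order only.

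The members and lists were chosen with earlier results of these data known. Every member and every other family gene is named. Of each other list, up to 6 called genes with the largest changes are named, or, in lists without a call, the 2 of lowest p. Also named are HIF1A, EPAS1, ITPR1, SLC4A2 and ESR1 (SLC16A3 was not analysed here), the 3 genes most like CA2 and CA12, and 3 neighbours on each side. Genes named outside this rule include BSG, CPS1, ITPR2, P4HA2, PFKFB3, ALDOA, LDHA and the cell type markers. The comparison of CA2 with the surface forms rests on CA12 alone, since CA9 was not analysed here. Alternatives were median centring, quantile normalization, a pseudocount of 16, a filter on dim probe sets (mean log2 level of at least 5), an intensity trend with a robust prior, a replicate block, 2 other choices of probe set and leaving out each array. The number of arrays limits the precision. Array numbers were not used as a block in the reported fit.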

Additional observations from a re-analysis of the deposited data

Results flagged for a closer look

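Among 122 groups of 4 arrays checked, 7 had 1 array apart from the other 3 by more than Dixon's critical value for the gap over the range; chance alone flags about 1 in 20. Among members, CA13 231270_at read 8.68 in resistant array 4 against 8.11 to 8.15 in the others, and CA11 read 7.06 in sensitive array 3 against 6.21 to 6.35. CA8 238537_at read 1.32 in resistant array 3 against 0.79 to 0.84, and CA8 1555445_at 3.89 in resistant array 4 against 1.52 to 1.54, both at dim signals. CA1 205950_s_at, also dim, read 3.90 in resistant array 1 against 5.09 to 5.26. Of the hypoxia genes, EGLN1 read 11.72 in sensitive array 3 against 11.58 to 11.59, and PDK1 8.95 in resistant array 4 against 9.41 to 9.46.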

How the results depend on the processing

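Over 16 alternatives the gap between CA2 and CA12 was 5.50 to 5.69, 5.50 with a pseudocount of 16 and 5.59 to 5.65 without single arrays. Counts without single arrays were 7885 to 10134 probe sets (10637 with all arrays), 4928 to 5776 genes (5986), 16 to 22 acid and bicarbonate genes (24) and 8 to 10 member probe sets (10). With the array number as a replicate block 5062 probe sets and 4356 genes passed, 17 acid and bicarbonate genes and 8 member probe sets. Deviations of same-numbered arrays correlated at -0.09 to 0.10 and 2 of 4 sensitive arrays correlated best with their own number, so the numbers were not taken to pair cultures. SLC9A5 turned to -0.66 and -0.18, PCCB to 0.49, and, not called with all arrays, ESR1 to 0.11 and GREB1 to 0.021 with the mean of their probe sets (GREB1 passed without sensitive array 1, at -0.59); ITPR1 ran from -0.042 to 0.082 without single arrays, negative without sensitive array 1 and, at -0.0093, without resistant array 1; the cause was not tested. Of 375 alternative values for family probe sets 8 moved by more than the spread between arrays, and 0 called ones changed sign. Dim signals limit CA14, CA5B, CA8 and the 7 other family genes.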

Other observations

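Other gene groups near the family's known biology were counted too, where 30.3% of all genes were called, 14.7% higher and 15.6% lower. In a list that is mostly dim, few calls cannot be read as a lack of change. Of 3 inositol trisphosphate receptor genes, ITPR3 lay at 9.82 ± 0.05 in sensitive and 9.01 ± 0.14 in resistant arrays and fell by 0.81 ± 0.09 (limma adjusted p = 0.000495), and ITPR1 and ITPR2 did not pass. The fall of ITPR3 was -0.25 (adjusted p = 0.593) on probe sets without a suffix for cross-hybridisation and -0.54 (adjusted p = 0.0520) with the mean of its probe sets, neither of which passed. Of 6 genes of the estrogen receptor, which is known to induce CA12 in breast cells, 0 passed in the limma fit (1 at an unadjusted p below 0.05) and 5 were dim in both groups; ESR1 changed by -0.77 ± 0.49 (adjusted p = 0.304) and GREB1 by -0.49 ± 0.18 (adjusted p = 0.0778). Of 13 water and gas channels 2 fell and 8 were dim in both groups. AQP3, a channel for water and glycerol, fell by 1.18 ± 0.21 (adjusted p = 0.00501). AQP8 fell by 0.93 ± 0.29 between dim levels (adjusted p = 0.0494) and passed in 2 of 15 alternatives.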
